A study of Mus musculus with 14 samples.

Results

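The genes described here encode the enzymes that make asparagine, serine, proline and one-carbon units. The set was Asns, Psat1, Phgdh, Psph, Shmt1, Shmt2, Mthfd2, Mthfd1l, Aldh18a1 and Pycr1, chosen by gene symbol. Of these 10 genes, 9 had probe sets on the array, of 18193 genes on it with a probe set of their own. Pycr1 had no probe set under that symbol and has no value here. Each gene is given by its brightest probe set (the highest mean log2 intensity over the 14 arrays), and its other probe sets serve as a check. All 9 genes passed the filter on low signal (at least 3 arrays over the pooled median, an intensity of 41.5), as did 12085 genes in all. Psat1 passed only through its tunicamycin arrays.

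The arrays measured total RNA of mouse liver in 4 groups. lsPERK livers after tunicamycin (1 mg/kg, 6 h) gave 4 arrays and lsPERK livers given DMSO (0.3%) gave 3 arrays. WT livers after tunicamycin (the same dose and time) gave 4 arrays and WT livers given DMSO (0.3%) gave 3 arrays. Tunicamycin blocks N-linked glycosylation, so unfolded proteins gather in the endoplasmic reticulum, and DMSO is its solvent. The series text calls lsPERK a knock-out. The labels do not give the deleted part, the cells that lost it, the age or sex of the mice, or the collection time of the DMSO livers. They also do not say whether each array came from a mouse of its own, so p-values measure the spread between these arrays.

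PERK is a kinase of the endoplasmic reticulum membrane that phosphorylates the translation factor eIF2 under stress, which lowers general protein synthesis while the transcription factor ATF4 is made in larger amounts. ATF4 is known to act on genes of amino acid supply, including Asns, the serine synthesis enzymes and the mitochondrial folate enzyme Mthfd2. The folate cycle carries one-carbon units between mitochondria and cytosol.

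A known ATF4 binding form has the letters TGATGNAA. That motif was searched on both strands in the window from 250 bases before to 50 bases after each RefSeq transcription start (build GRCm38.p6). It occurred in 3.97% of 32851 such windows. The 10 genes had 11 windows, and 2 of the windows held a match. The 2 promoters with a match are printed with that of Psat1, whose rise after tunicamycin in WT liver was at least 42.8-fold. The Asns window is chr6:7693160-7693459 and the Pycr1 window is chr11:120643699-120643998. Psat1 has 2 windows, of which chr19:15925010-15925309 is printed, and all 3 lie on the minus strand. Capitals mark the motif.
Asns promoter: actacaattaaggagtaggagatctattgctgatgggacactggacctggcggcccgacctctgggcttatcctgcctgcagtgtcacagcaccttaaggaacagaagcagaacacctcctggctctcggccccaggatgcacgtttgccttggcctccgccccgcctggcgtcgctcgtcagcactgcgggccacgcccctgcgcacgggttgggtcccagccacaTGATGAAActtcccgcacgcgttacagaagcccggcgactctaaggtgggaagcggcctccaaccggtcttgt
Pycr1 promoter: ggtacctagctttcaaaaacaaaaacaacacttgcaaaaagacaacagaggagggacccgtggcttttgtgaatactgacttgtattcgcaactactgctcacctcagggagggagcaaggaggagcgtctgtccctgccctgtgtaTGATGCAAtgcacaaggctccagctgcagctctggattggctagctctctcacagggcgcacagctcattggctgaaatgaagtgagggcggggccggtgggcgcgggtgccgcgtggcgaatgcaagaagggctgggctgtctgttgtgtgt
Psat1 promoter: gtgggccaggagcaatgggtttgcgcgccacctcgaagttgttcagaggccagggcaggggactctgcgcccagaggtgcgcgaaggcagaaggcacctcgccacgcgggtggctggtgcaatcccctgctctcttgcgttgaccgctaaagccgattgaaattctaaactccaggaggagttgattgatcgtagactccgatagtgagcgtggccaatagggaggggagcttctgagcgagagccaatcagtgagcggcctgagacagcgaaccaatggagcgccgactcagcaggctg

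In the Asns window the motif reads TGATGAAA and its first base lies 23 bases before the start. In the Pycr1 window it reads TGATGCAA and begins 103 bases before the start. The other 9 windows, of 8 genes and with both of Psat1 among them, did not hold these letters, which is a statement about these windows only.

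Eif2ak3, the gene for PERK, checks the genotype labels, although it is not known here whether its probe set lies in the deleted part. Its geometric mean normalised intensity was 281 in lsPERK livers after tunicamycin and 139.6 in lsPERK livers given DMSO, against 1897 in WT livers after tunicamycin and 338 in WT livers given DMSO. The genotype difference under tunicamycin was -2.75 on the log2 scale (SE 0.18, limma adjusted p = 1.47e-07). Under DMSO it was -1.27 (SE 0.21), with no overlap of the groups but an adjusted p of 0.309. Marker sums are of quantile-normalised intensities. That scaling gives every array the same set of values, which limits how far a sum of very bright genes can vary. Hepatocyte markers summed to 109600 to 123200 on every array, and acinar markers to 62.9 to 379. The narrow hepatocyte range is therefore no measure of the share of hepatocytes. Sums varied more for macrophage (4157 to 19360), endothelial (3338 to 6068) and stellate markers (6223 to 10920). They ran from 121 to 295 for cholangiocyte, 85.7 to 301 for lymphocyte and 59.9 to 489 for neutrophil markers. Within WT livers given DMSO the macrophage sum ran from 7230 to 19360. Of 30 tested markers of 7 other cell types, 1 changed after tunicamycin in lsPERK liver and 5 in WT liver, and 1 differed between lsPERK and WT livers under tunicamycin. Of 7 hepatocyte markers, none changed in lsPERK liver, 1 changed in WT liver and 2 differed between the genotypes under tunicamycin. Of all 12085 tested genes, 15.7% changed in lsPERK liver, 46.7% changed in WT liver and 35.3% differed between the genotypes under tunicamycin. The part of other cell types in the results was not tested. In tissue RNA, fewer cells of a type and less RNA per cell cannot be told apart. Xist, the RNA made from the inactive X chromosome of females, was high on 6 arrays (deposited intensity 7878 to 9297) and low on 8 (23.4 to 61.2). High arrays were 2 of 4 lsPERK tunicamycin, 2 of 3 lsPERK DMSO, 1 of 4 WT tunicamycin and 1 of 3 WT DMSO arrays. The log2 ratio of 3' to 5' Actb signal, a sign of RNA integrity, averaged 0.68 ± 0.10 and 0.87 ± 0.25 in lsPERK livers after tunicamycin and DMSO (SD, n = 4 and 3). It averaged 0.84 ± 0.25 and 1.09 ± 0.15 in WT livers after tunicamycin and DMSO (SD, n = 4 and 3). With that ratio in the fit, the enzymes called were 2 in the lsPERK response, 7 in the WT response and 3 of the 4 for the difference of responses.

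In lsPERK liver, tunicamycin raised 2 of the 9 enzymes, Psat1 and Psph, and lowered none. That count stands beside 8.42% of all tested genes called higher and 7.27% called lower (15.7% in either direction). In WT liver it raised 5 of the 9, Asns, Psat1, Psph, Mthfd2 and Aldh18a1, and lowered Shmt1 and Shmt2. There 20.7% of all tested genes were called higher and 26% lower (46.7% in either direction), so being called in itself was common. The median log2 change of the 9 enzymes was 0.52 in lsPERK liver and 1.43 in WT liver, beside -0.02 and -0.13 over all tested genes. Both medians are the same with Psat1 at the bound given for it. A call here means a limma p under 0.05 after Benjamini-Hochberg adjustment over the 12085 genes.

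**Figure D1:**
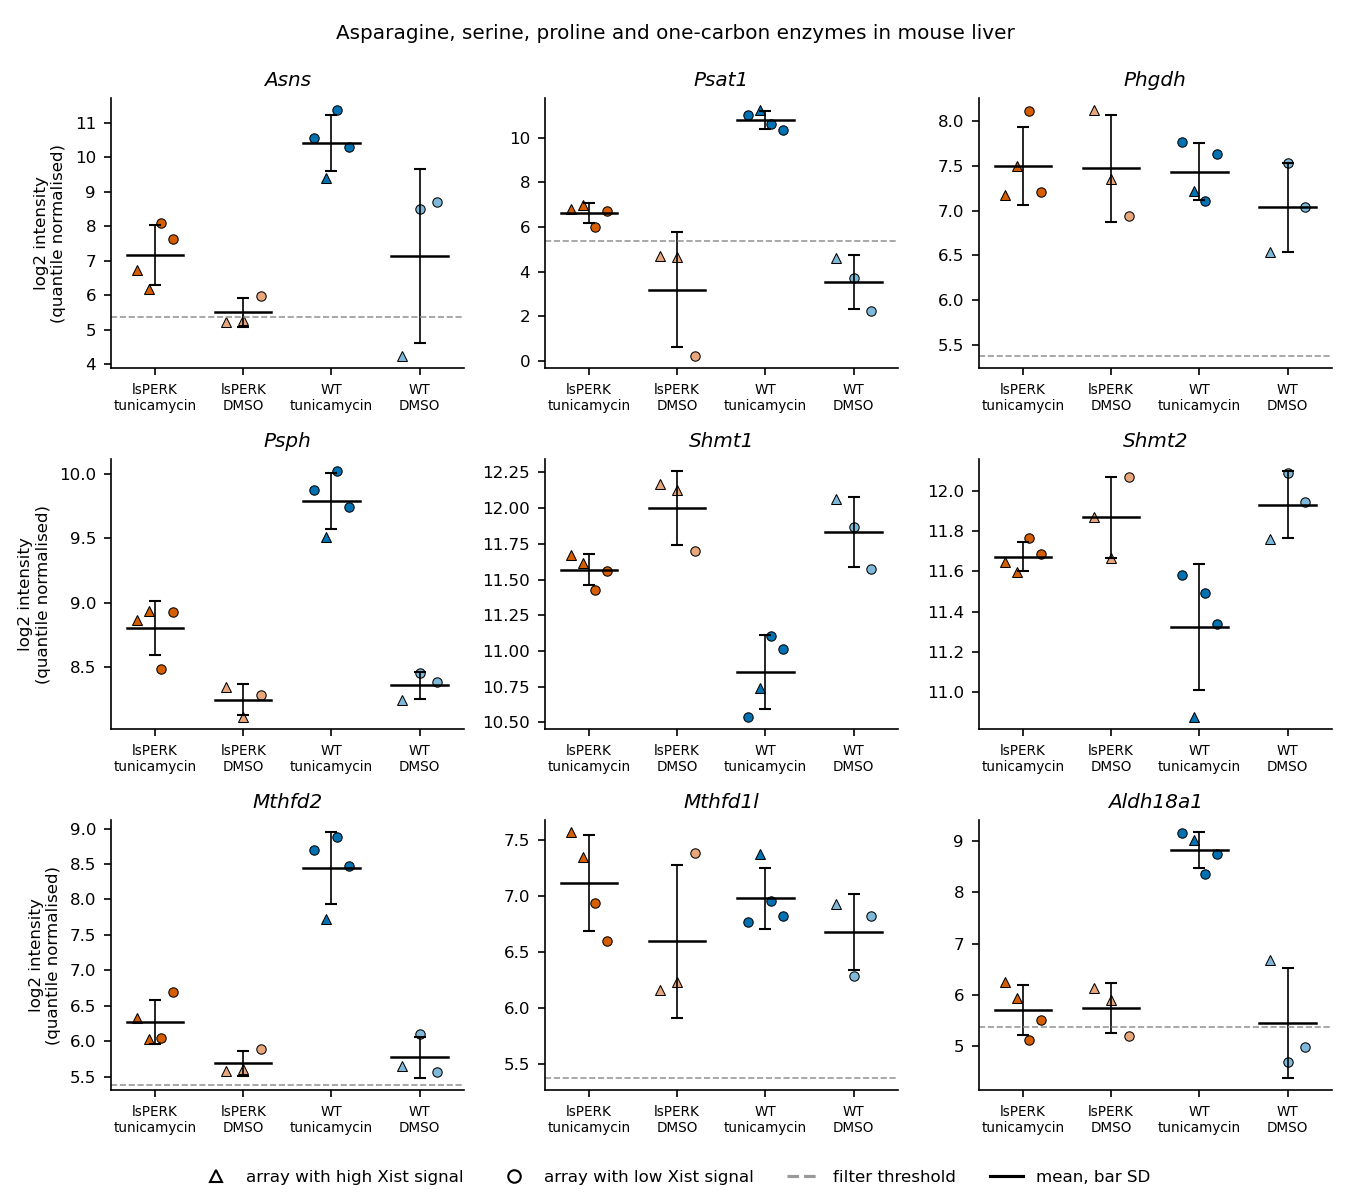
Quantile-normalised log2 intensity (vertical axis) of the 9 enzymes on every array, in columns for lsPERK tunicamycin, lsPERK DMSO, WT tunicamycin and WT DMSO. Triangles are arrays with high Xist signal, circles arrays with low Xist signal, bars the mean and SD, and the dashed line, where shown, the filter threshold (log2 5.37). The WT tunicamycin arrays stand above all others for Asns, Psat1, Psph, Mthfd2 and Aldh18a1.

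Serine is made from phosphoglycerate in a chain of Phgdh, Psat1 and Psph. The later enzymes of the chain rose in both genotypes, while Phgdh passed no test. Psat1, the transaminase, had normalised intensities of 110.0, 127, 63.1 and 106 in lsPERK livers after tunicamycin, against 26.1, 24.98 and 1.17 in lsPERK livers given DMSO. WT livers had 2045, 2387, 1557 and 1301 after tunicamycin, against 24.7, 12.99 and 4.76 under DMSO. Every DMSO array lay under the filter threshold, and all tunicamycin arrays lay over it. Set against that threshold, Psat1 was at least 2.37-fold higher after tunicamycin in lsPERK liver (adjusted p = 0.0154) and at least 42.8-fold higher in WT liver (adjusted p = 1.24e-05). Here and below, the adjusted p beside a bound is that of the fitted change, with no array raised to the threshold. It does not test the bound. The lsPERK call was lost when the fit held only the lsPERK arrays (adjusted p = 0.0518). The second Psat1 probe set also lay under the threshold on every DMSO array and passed the filter only through tunicamycin arrays. It was at least 1.36-fold higher after tunicamycin in lsPERK liver (adjusted p = 0.00171) and at least 25.7-fold higher in WT liver (adjusted p = 6.64e-09).

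Psph, the phosphatase that releases serine, had 467, 490.4, 359.5 and 486 in lsPERK livers after tunicamycin, against 325, 277 and 312 under DMSO. The WT livers gave 942, 729.6, 1039.7 and 856 after tunicamycin, against 304, 350.0 and 334 under DMSO. The groups did not overlap in either genotype, and the spread between arrays was narrow. The log2 change was 0.56 in lsPERK liver (SE 0.14, adjusted p = 0.0172) and 1.43 in WT liver (SE 0.14, adjusted p = 2.79e-06). The lsPERK call was lost on the values as deposited, without rescaling between arrays (0.51, adjusted p = 0.159). It was also lost without lsPERK tunicamycin replicate 2 (0.51, adjusted p = 0.0504), without lsPERK DMSO replicate 2 (0.49, adjusted p = 0.0815), among Xist-low arrays (0.42, adjusted p = 0.319) and among Xist-high arrays (0.68, adjusted p = 0.0678).

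Phgdh, which opens the chain, ranged from 144 to 277 in lsPERK livers after tunicamycin, against 123 to 278 under DMSO. In WT livers it ranged from 138 to 218 after tunicamycin, against 93.1 to 186 under DMSO. All 4 groups overlapped. The log2 change was 0.03 in lsPERK liver (95% confidence interval -0.65 to 0.70) and 0.40 in WT liver (-0.28 to 1.07). No kept probe set of Phgdh was called in any comparison. Its 6 probe sets include 2 that also name a pseudogene (Gm8096 or Gm6756), and these 2 were not tested. Whether the tested probe sets also pick up a pseudogene is not known here, so the Phgdh signal is uncertain.

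The one-carbon enzymes split by gene. Serine hydroxymethyltransferase takes a one-carbon unit off serine, in the cytosol by Shmt1 and in mitochondria by Shmt2. Shmt1 had 3267, 3145, 2750.1 and 3017 in lsPERK livers after tunicamycin, against 4612, 4465 and 3329 under DMSO. In WT livers it had 1486, 1715, 2198 and 2071 after tunicamycin, against 4276, 3735 and 3051 under DMSO. The groups did not overlap in either genotype, and the WT tunicamycin arrays were the lowest. The log2 change was -0.43 in lsPERK liver (SE 0.16, adjusted p = 0.0803) and -0.99 in WT liver (SE 0.16, adjusted p = 0.000147). Without lsPERK DMSO replicate 3 the lsPERK change was -0.58 (adjusted p = 0.0297). It was -0.21 among Xist-low arrays, where that replicate is the only lsPERK DMSO array. Among Xist-high arrays, which leave that replicate out, it was -0.50. In WT liver all 4 Shmt1 probe sets fell, and in lsPERK liver 2 of the 4 did.

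Shmt2 had 3209.6, 3100.4, 3478 and 3291 in lsPERK livers after tunicamycin, against 3742, 3253 and 4301 under DMSO. WT intensities were 3070.3, 1880.4, 2886 and 2592 after tunicamycin, against 3469, 4361 and 3941 under DMSO. The lsPERK groups overlapped and the WT groups did not. The change was -0.20 in lsPERK liver (adjusted p = 0.437) and -0.61 in WT liver (SE 0.15, adjusted p = 0.00412), and 3 of 4 probe sets fell in WT liver. Both WT falls depend on the scaling of the arrays. On the values as deposited they were -0.53 for Shmt1 (adjusted p = 0.0522) and -0.19 for Shmt2 (adjusted p = 0.461), beside a median change of all genes of 0.30. With median centring, Shmt1 still fell and Shmt2 changed by -0.47 (adjusted p = 0.0544).

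Mthfd2 oxidises the mitochondrial one-carbon unit. Its signal was 80.6, 65.2, 66.1 and 103 in lsPERK livers after tunicamycin, against 47.6, 48.5 and 59.3 under DMSO. In WT livers it was 414, 212, 470.5 and 356 after tunicamycin, against 49.99, 68.6 and 47.3 under DMSO. All tunicamycin arrays lay above the DMSO arrays of their own genotype, and all WT tunicamycin arrays above the lsPERK ones. The log2 change was 0.59 in lsPERK liver (SE 0.26, adjusted p = 0.161) and 2.67 in WT liver (SE 0.26, adjusted p = 2.36e-06). The second Mthfd2 probe set averaged under the filter threshold in the DMSO livers of both genotypes. It was not called in lsPERK liver (adjusted p = 0.162) and was at least 7.43-fold higher after tunicamycin in WT liver (adjusted p = 9.42e-06).

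Mthfd1l, which releases formate from the mitochondrial unit, ranged from 97.1 to 190.0 in lsPERK livers after tunicamycin, against 71.8 to 167 under DMSO. In WT livers it ranged from 109 to 166 after tunicamycin, against 78.2 to 122 under DMSO. The groups overlapped and no change was called, with 0.52 in lsPERK liver (adjusted p = 0.300) and 0.30 in WT liver (adjusted p = 0.459). Without lsPERK DMSO replicate 3, the highest of its group at 167, the lsPERK change was 0.92 (adjusted p = 0.0450). It was -0.61 among Xist-low arrays, where that replicate is the only lsPERK DMSO array. Among Xist-high arrays, which leave that replicate out, it was 1.26.

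Aldh18a1 makes the proline precursor pyrroline carboxylate from glutamate, which Pycr1 reduces to proline. Aldh18a1 had 76.4, 61.4, 34.9 and 45.7 in lsPERK livers after tunicamycin, against 70.8, 59.5 and 36.7 under DMSO. WT livers had 569.6, 513, 328 and 427 after tunicamycin, against 102, 26.0 and 31.6 under DMSO. In lsPERK liver the groups covered the same range, with a log2 change of -0.04 (SE 0.42, 95% confidence interval -0.95 to 0.87, adjusted p = 0.971). In WT liver the change was 3.36 (SE 0.42, adjusted p = 2.05e-05), a fitted 10.3-fold difference. All 4 kept probe sets rose, of which 3 averaged under the threshold in the DMSO livers. Of these 3, 2 passed the filter only through tunicamycin arrays. On the brightest probe set the WT DMSO values of 26.0 and 31.6 lay under the filter threshold, so the 10.3-fold size rests in part on them. In lsPERK livers 34.9 after tunicamycin and 36.7 under DMSO lay under it too.

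Asns transfers the amide nitrogen of glutamine to aspartate. It had 107, 72.5, 274 and 199 in lsPERK livers after tunicamycin, against 37.8, 39.4 and 62.8 under DMSO. In WT livers it had 1498, 672, 2633 and 1269 after tunicamycin, against 18.9, 360.4 and 421 under DMSO. The groups did not overlap in either genotype, but the WT DMSO arrays differed among themselves by more than any other group. The DMSO values of 37.8 and 39.4 in lsPERK and 18.9 in WT livers lay under the filter threshold. The log2 change was 1.66 in lsPERK liver (SE 0.86, adjusted p = 0.229) and 3.25 in WT liver (SE 0.86, adjusted p = 0.00664). Without WT DMSO replicate 1, the lowest of that group, the lsPERK change kept its size but reached an adjusted p of 0.0280. Without it the WT change was 1.80 on the log2 scale and still called. A fit of the lsPERK arrays alone gave an adjusted p of 0.0381 for the lsPERK change.

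**Figure D2:**
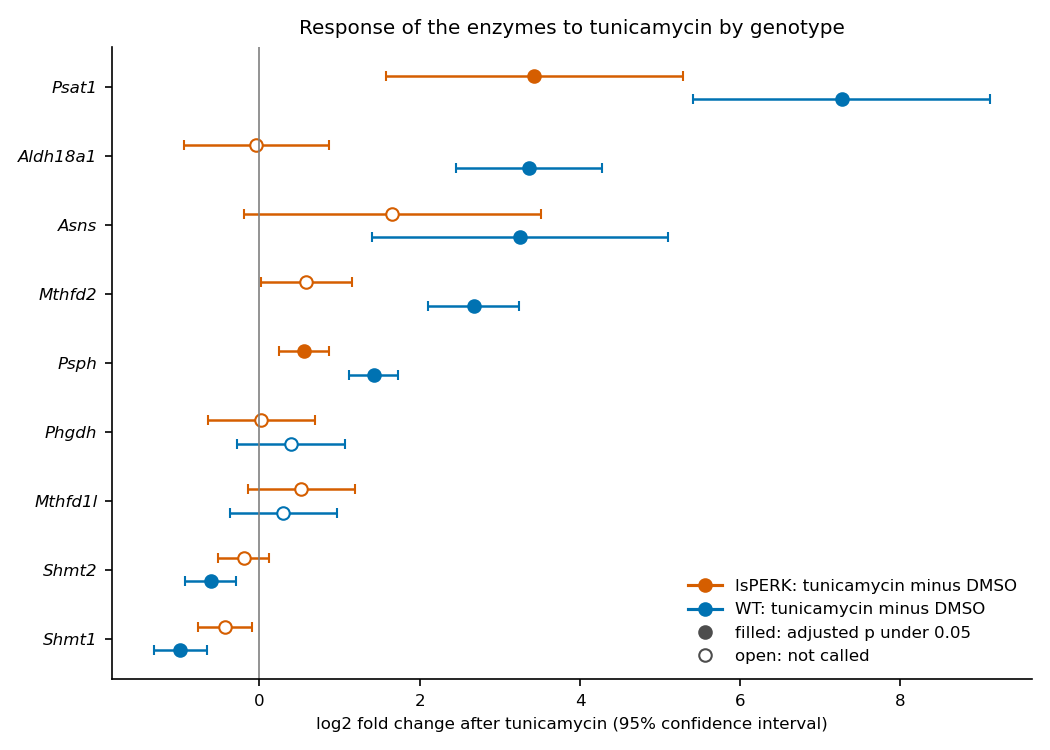
Log2 fold change after tunicamycin over DMSO (horizontal axis) for each enzyme, in lsPERK and in WT liver, with 95% confidence intervals from limma; filled points are called at an adjusted p under 0.05. The WT point lies at 1.43 or more for the 5 enzymes that rose, and the lsPERK point is lower for each of them. The Psat1 points are fitted values against DMSO arrays under the filter threshold, and the text gives bounds for them.

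Asns also went with Xist. Xist-high arrays were lower in Asns than Xist-low arrays in each of the 4 groups. Log2 intensity was 6.18 and 6.75 on Xist-high against 7.63 and 8.10 on Xist-low arrays of lsPERK livers after tunicamycin. It was 5.24 and 5.30 against 5.97 in lsPERK livers given DMSO. In WT livers after tunicamycin it was 9.39 on the Xist-high array against 10.31 to 11.36, and in WT livers given DMSO 4.24 against 8.49 and 8.72. The Xist-high DMSO values of both genotypes lay under the filter threshold. With Xist status beside the 4 group means, Xist-high arrays were lower by a log2 coefficient of -1.88 (SE 0.39, adjusted p = 0.00846), and the second probe set gave -2.62 (adjusted p = 0.00317). Of all 12085 genes, 10.9% were called between Xist-high and Xist-low arrays.

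The same coefficient was 0.89 for Aldh18a1 (adjusted p = 0.0149), 1.63 for Psat1 (adjusted p = 0.0399) and -0.30 for Shmt2 (adjusted p = 0.0244). Other probe sets of these 3 enzymes were not called, which leaves 1 of 4 kept Aldh18a1, 1 of 2 Psat1 and 1 of 4 Shmt2 probe sets. The second Psat1 probe set gave 0.15 (adjusted p = 0.728). On the brightest Psat1 probe set, Xist-high minus Xist-low means were 4.45 in lsPERK and 1.65 in WT livers given DMSO. All those DMSO arrays lay under the filter threshold, so the size of the Psat1 coefficient is not a measured one. After tunicamycin the same differences were 0.53 in lsPERK and 0.57 in WT livers. The other 5 enzymes were not called. The labels do not give the sex of the mice, and the part of sex in the results was not tested apart from these fits.

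**Figure D3:**
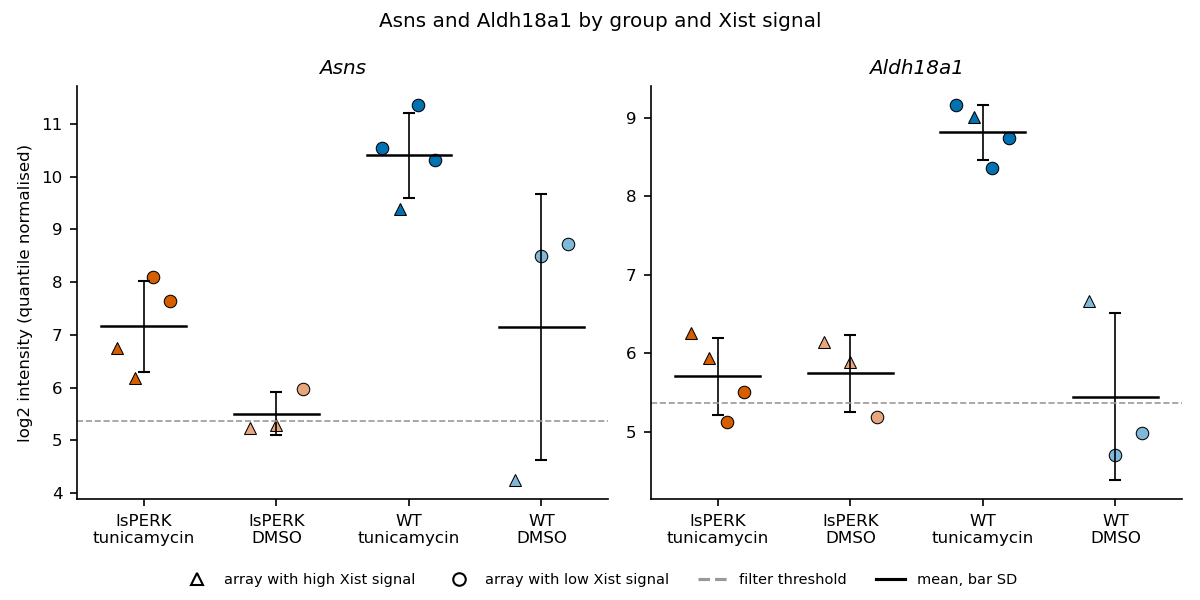
Quantile-normalised log2 intensity of Asns and Aldh18a1 on every array by group, with Xist-high arrays as triangles and Xist-low arrays as circles. In each group the Xist-high arrays lie under the Xist-low arrays for Asns; for Aldh18a1 the DMSO arrays and the lsPERK tunicamycin arrays show the opposite order.

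Under DMSO, lsPERK and WT livers did not differ by the test in any of the 9 enzymes. The share of all tested genes called was 0%, with 512 genes at an unadjusted limma p under 0.05. The median of the 9 differences was -0.08 on the log2 scale, and the groups overlapped for every enzyme. Asns lay under the filter threshold on the Xist-high DMSO arrays of both genotypes. Leaving Psat1 aside, the widest interval was that of Asns, at -1.65 (95% confidence interval -3.62 to 0.33). It was -3.10 without WT DMSO replicate 1, -0.98 without WT DMSO replicate 2 and -0.86 without WT DMSO replicate 3, and was called in none of these. Psat1 lay under the filter threshold in both genotypes, so no fold is given.

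After tunicamycin, lsPERK livers were lower than WT livers in 5 of the 9 enzymes and higher in 1. Of all tested genes, 16.8% were called lower and 18.5% higher in lsPERK liver (35.3% in either direction). The log2 difference, lsPERK minus WT, was -4.17 for Psat1 (SE 0.80, adjusted p = 0.00103) and -3.24 for Asns (SE 0.80, adjusted p = 0.00585). It was -3.10 for Aldh18a1 (SE 0.39, adjusted p = 4e-05), -2.17 for Mthfd2 (SE 0.24, adjusted p = 1.53e-05) and -0.98 for Psph (SE 0.13, adjusted p = 6.75e-05). For these 5 enzymes every lsPERK array lay under every WT array. Shmt1 was the one enzyme called higher in lsPERK liver, by 0.72 (SE 0.14, adjusted p = 0.00143), and on the values as deposited that call was missed (0.52, adjusted p = 0.0599). Shmt2 was 0.35 higher with no overlap of the groups, at an adjusted p of 0.0644. With Xist status in the fit, the Shmt2 difference was 0.42 (adjusted p = 0.00340). Without WT tunicamycin replicate 1 it was 0.44 (adjusted p = 0.0324), and without WT tunicamycin replicate 2 it was 0.20 (adjusted p = 0.170). It was 0.25 among Xist-low arrays (adjusted p = 0.0979) and 0.75 among Xist-high arrays (adjusted p = 0.0213).

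The Asns difference held within each Xist class, at -2.88 among Xist-low arrays (adjusted p = 0.000223) and -2.93 among Xist-high arrays (adjusted p = 0.00593). The Psat1 difference was -4.30 among Xist-low and -4.34 among Xist-high arrays (adjusted p = 0.000231 and 0.00171). Psph, at -0.61 among Xist-high arrays, was not called there (adjusted p = 0.105). The Xist-high fit holds 1 array in each WT group, whose spread is taken from the lsPERK groups.

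The difference of the responses, lsPERK minus WT, was called for 4 of the 9 enzymes, all with a lower value in lsPERK liver. Of all tested genes, 9.67% were called with a lower and 10.2% with a higher value in lsPERK liver (19.9% in either direction). The log2 difference was -3.40 for Aldh18a1 (SE 0.60, adjusted p = 0.00171), -2.09 for Mthfd2 (SE 0.37, adjusted p = 0.00181) and -0.87 for Psph (SE 0.20, adjusted p = 0.00866). It was -1.47 for Psph on the values as deposited (adjusted p = 0.00214) and -2.26 for Aldh18a1 among Xist-high arrays (adjusted p = 0.0400). The Aldh18a1 values rest in part on arrays under the filter threshold, WT DMSO arrays among them. For Psat1 the fitted value was -3.84 (SE 1.22, adjusted p = 0.0406). That value rests on DMSO arrays under the threshold in both genotypes, so its size is not a measured one. The Psat1 call was lost without any 1 of 12 of the 14 arrays (adjusted p 0.0515 to 0.109). WT DMSO replicate 1 and lsPERK DMSO replicate 3 were the arrays whose removal kept it. The fitted value was -1.54 among Xist-low arrays, where lsPERK DMSO replicate 3 is the only lsPERK DMSO array. On the second probe set, whose DMSO arrays were under the threshold too, it was -3.88 and called.

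Asns was not called in this comparison. Its difference of responses was -1.59 (SE 1.22, 95% confidence interval -4.21 to 1.02, adjusted p = 0.412). Without WT DMSO replicate 1 it was -0.14 (adjusted p = 0.923), without WT DMSO replicate 2 it was -2.26 (adjusted p = 0.244) and without WT DMSO replicate 3 it was -2.37 (adjusted p = 0.215). With Xist status in the fit it was -1.75 (SE 0.75, adjusted p = 0.110). It was -0.24 among Xist-low arrays (adjusted p = 0.799) and -3.96 among Xist-high arrays (adjusted p = 0.0205), and whether those differ was not tested. Under DMSO the Asns genotype difference was -2.63 among Xist-low arrays (adjusted p = 0.0513) and 1.03 among Xist-high arrays (adjusted p = 0.808). The Xist-low fit holds 1 lsPERK DMSO array. On the Xist-high DMSO arrays Asns had log2 intensities of 4.24 in WT and 5.24 and 5.30 in lsPERK livers. These lay under the filter threshold (log2 5.37), so the Xist-high values of -3.96 and 1.03 are not measured sizes. Among Xist-high arrays Mthfd2 (-1.49, adjusted p = 0.121) and Psph (-0.59, adjusted p = 0.295) were not called either. Shmt1 (0.56, adjusted p = 0.0954) and Shmt2 (0.41, adjusted p = 0.200) did not pass the test. The genotype comparison and the WT response share the WT tunicamycin arrays.

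The other probe sets of each enzyme were tested in the same way. In the difference of responses, both Psat1, both Mthfd2 and all 4 kept Aldh18a1 probe sets were called, as was the single Psph probe set. DMSO means under the threshold went into these calls for both Psat1, 1 of 2 Mthfd2 and 3 of 4 Aldh18a1 probe sets. Both Psat1 probe sets passed the filter only through tunicamycin arrays. So did 2 Aldh18a1 probe sets, which were over the threshold on 4 and on 5 arrays. The arrays where these probe sets were high thus decided that they were kept, so their calls are no separate check. Neither Asns probe set was called. Under tunicamycin all 4 Shmt1 probe sets were higher in lsPERK liver. No Shmt2 probe set was called between the genotypes.

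**Figure D4:**
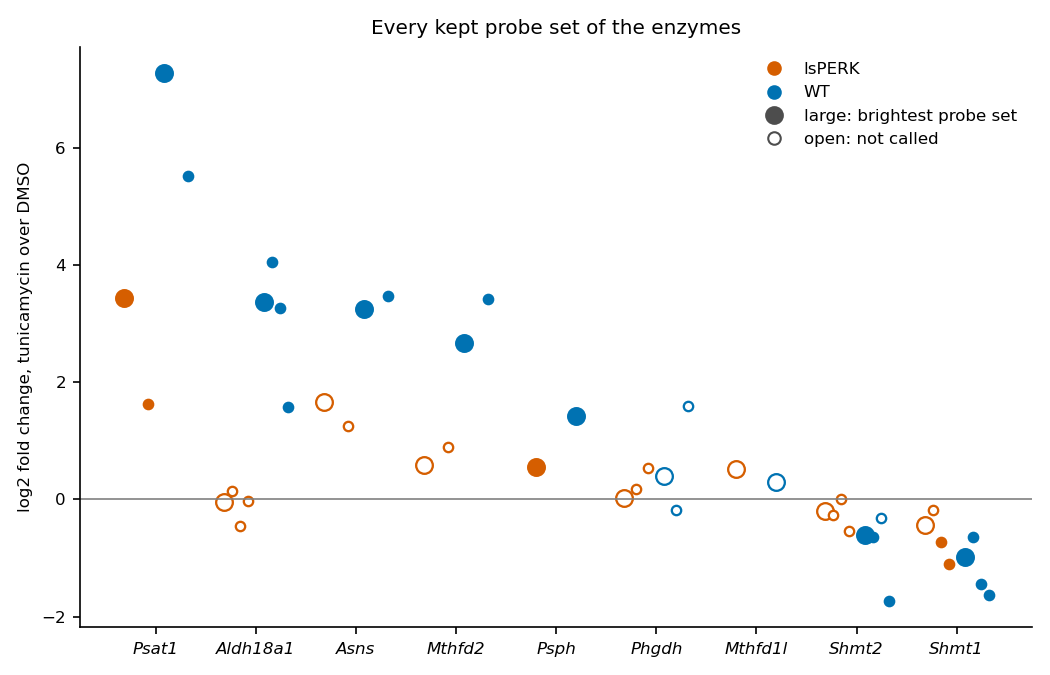
Log2 fold change after tunicamycin over DMSO (vertical axis) of every kept probe set of each enzyme, in lsPERK and in WT liver; the large point is the brightest probe set and open points were not called. For Asns, Psat1, Mthfd2 and Aldh18a1 each WT probe set lies above the lsPERK points of that enzyme. Points are fitted values, and among them those of both Psat1, 1 Mthfd2, 3 Aldh18a1, 2 Phgdh and, in lsPERK liver, 1 Asns probe sets have a group mean under the filter threshold.

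Neighbouring genes of the same pathways were counted in the same way. Of 55 further genes in 4 lists, 44 were tested. After tunicamycin 2 were called higher and 9 lower in lsPERK liver, against 5 higher and 22 lower in WT liver. The shares over all tested genes were 8.42% higher and 7.27% lower in lsPERK liver, and 20.7% higher and 26% lower in WT liver. Under tunicamycin, 14 were higher and 6 lower in lsPERK than in WT liver, beside 18.5% higher and 16.8% lower over all tested genes. The difference of responses was called for 11, with 7 above and 4 below 0, beside 10.2% above and 9.67% below over all tested genes. Up to 4 genes per list are named below, in order of p in the WT response. That choice favours genes with a clear WT change and can miss genes that changed more in lsPERK liver.

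Among 18 tested genes of the serine, glycine and folate cycle, the lsPERK response had 1 call upwards and 2 downwards, and the WT response had 3 upwards and 8 downwards. These counts are read against 8.42% upwards and 7.27% downwards of all tested genes in lsPERK liver, and 20.7% and 26% in WT liver. Mthfd1, the cytosolic trifunctional folate enzyme, fell by 0.54 in lsPERK liver (adjusted p = 0.00755) and by 1.29 in WT liver (adjusted p = 1.48e-06). Mtfmt, which formylates the mitochondrial initiator tRNA, changed by -0.11 in lsPERK liver (adjusted p = 0.739) and fell by 1.17 in WT liver (adjusted p = 7.66e-05). Slc25a32, the mitochondrial folate carrier, rose by 0.57 in lsPERK liver (adjusted p = 0.00915) and by 0.70 in WT liver (adjusted p = 0.00054). Sardh, which breaks down sarcosine, fell by 0.44 in lsPERK liver (adjusted p = 0.0406) and by 0.67 in WT liver (adjusted p = 0.00100).

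Among 7 tested proline and glutamate genes none rose in either genotype, and 2 fell in lsPERK liver and 3 in WT liver. Over all tested genes the calls were 8.42% higher with 7.27% lower for lsPERK, and 20.7% higher with 26% lower for WT. Prodh2, a hydroxyproline dehydrogenase, fell by 0.35 in lsPERK liver (adjusted p = 0.0172) and by 0.70 in WT liver (adjusted p = 2.81e-05). Aldh4a1, which turns the shared proline intermediate into glutamate, changed by -0.37 in lsPERK liver (adjusted p = 0.381) and fell by 1.12 in WT liver (adjusted p = 0.0026). Glul, glutamine synthetase, changed by -0.27 in lsPERK liver (adjusted p = 0.372) and fell by 0.47 in WT liver (adjusted p = 0.0486). Glud1, glutamate dehydrogenase, was not called in either genotype, at 0.09 in lsPERK liver and -0.19 in WT liver (adjusted p = 0.610 and 0.120).

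Among 10 aspartate and asparagine genes, the lsPERK response had 1 call upwards and 3 downwards, and the WT response had 2 upwards and 6 downwards, beside the same all-gene shares (8.42% and 7.27% in lsPERK liver, 20.7% and 26% in WT liver). The 2 that rose in WT liver were transaminases. Got1, the cytosolic aspartate transaminase, changed by -0.66 in lsPERK liver (adjusted p = 0.162) and rose by 1.56 in WT liver (adjusted p = 0.000656). Gpt2, the mitochondrial alanine transaminase, changed by -0.26 in lsPERK liver (adjusted p = 0.215) and rose by 0.91 in WT liver (adjusted p = 7.41e-05). The difference of responses was -2.21 for Got1 (adjusted p = 0.00265) and -1.17 for Gpt2 (adjusted p = 0.000911). Slc25a13, the mitochondrial aspartate and glutamate carrier citrin, changed by -0.18 in lsPERK liver (adjusted p = 0.256) and fell by 0.84 in WT liver (adjusted p = 1.10e-05). Aspg, an asparagine-degrading enzyme, changed by -0.38 in lsPERK liver (adjusted p = 0.269) and fell by 1.22 in WT liver (adjusted p = 0.000322). Among 9 tested genes of glycolytic supply and glycine use, 2 fell in lsPERK liver and 5 in WT liver, and none rose, beside 7.27% lower and 8.42% higher of all tested genes in lsPERK liver and 26% lower and 20.7% higher in WT liver. Gamt, which makes creatine, changed by -0.34 in lsPERK liver (adjusted p = 0.117) and fell by 1.04 in WT liver (adjusted p = 2.60e-05). Pgam1, a phosphoglycerate mutase, changed by 0.08 in lsPERK liver (adjusted p = 0.520) and fell by 0.32 in WT liver (adjusted p = 0.00288). Agxt, which converts glyoxylate to glycine, changed by -0.26 in lsPERK liver (adjusted p = 0.121) and fell by 0.45 in WT liver (adjusted p = 0.00330). Gatm, which opens creatine synthesis, fell by 1.14 in lsPERK liver (adjusted p = 0.0150) and by 0.78 in WT liver (adjusted p = 0.0368).

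**Figure D5:**
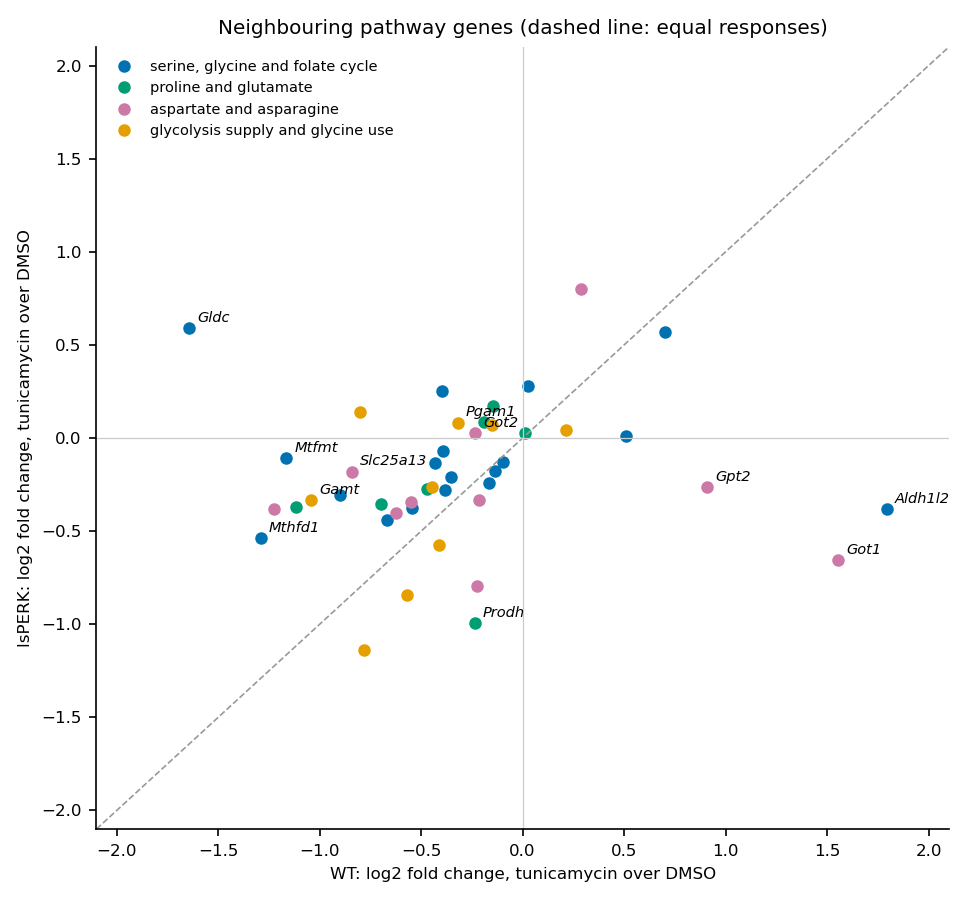
Log2 fold change after tunicamycin over DMSO of the 44 further pathway genes, with lsPERK liver on the vertical and WT liver on the horizontal axis; names mark genes with a called difference of responses and the dashed line marks equal responses. Got1 and Gpt2 lie on the right under the line, and Mthfd1 and Mtfmt on the left above it.

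The pattern over arrays was set against all other genes by the root mean square difference of log2 intensity over the 14 arrays, after subtracting each gene's own mean. Psat1 was nearest to Atf3 (0.870), Il23a (1.11) and Ddit3 (1.24). Its distances include the DMSO arrays, on which Psat1 lay under the filter threshold. Psph was nearest to Zfp180 (0.143), Ebna1bp2 (0.1501) and Acbd3 (0.185). Mthfd2 was nearest to 5430416N02Rik (0.273), C9orf72 (0.303) and Btc (0.314). Among the enzymes themselves, Mthfd2 was nearest to Psph (0.591), Aldh18a1 to Mthfd2 (0.779), Asns to Mthfd2 (1.28) and Psat1 to Aldh18a1 (2.08). Shmt1 and Shmt2 were nearest to each other (0.365). The measure depends on the size of the changes, so genes that change little lie close together. Shared regulation of near genes was not tested.

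Atf4 and Ddit3, transcription factors of the same stress response, were measured on the same arrays. Atf4 had a geometric mean of 2846 in lsPERK livers after tunicamycin and 2712 in lsPERK livers given DMSO, against 8324 in WT livers after tunicamycin and 2295 in WT livers given DMSO. Its log2 change was 0.07 in lsPERK liver (adjusted p = 0.851) and 1.86 in WT liver (adjusted p = 1.64e-06). Ddit3, the transcription factor CHOP, changed by 2.45 in lsPERK liver (adjusted p = 2.15e-07) and by 6.12 in WT liver (adjusted p = 5.56e-12).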

How the data were processed

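The authors deposited one table of probe set intensity values for the 14 arrays of a 3' expression array, made with GCOS and MAS5 per the submitters' processing notes; no software version is given in the sources used here. Deposited array medians ran from 34.4 to 53.4. From these, log2 values were quantile normalised without the 64 control probe sets. Of 45101 probe sets, 34945 named 1 gene, 932 several and 9160 none. Probe sets over the pooled median on at least 3 arrays were kept, each gene by its brightest. limma 3.58.1 in R 4.3.3 fitted the 4 group means (trended eBayes, 10 residual degrees of freedom), with 5 contrasts and Benjamini-Hochberg adjustment over 12085 genes; a call is an adjusted p under 0.05. Same-numbered arrays deviated together in all 3 lsPERK tunicamycin and DMSO pairs (correlation 0.24 to 0.35). The arrays of each of these 3 pairs also shared their Xist class. In no other comparison that the numbers join did every pair do so (-0.37 to 0.42 over all 19 pairs). The labels give the numbers no meaning, so the main fit has no block. In some tunicamycin responses the DMSO mean lay under the filter threshold. There the DMSO arrays under it were raised to it, and the fold is given as a bound. The adjusted p beside a bound comes from the fit without raised arrays and does not test the bound. Differences of responses stay fitted values. The enzymes and the lists were chosen with earlier results of these data known. Named genes were the enzymes, Eif2ak3, Atf4, Ddit3, Xist, and up to 4 genes per list in order of p in the WT response. The fit was tested on simulated data. Alternatives covered scaling, filter, floor, trend, array weights, covariates, replicate block and arrays left out; Xist-low and Xist-high subsets were added after seeing the data.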

Additional observations from a re-analysis of the deposited data

Results flagged for a closer look

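The tunicamycin responses differed between the genotypes by a test of the difference itself for 4 enzymes. The log2 difference, lsPERK minus WT, was -3.84 for Psat1, -0.87 for Psph, -2.09 for Mthfd2 and -3.40 for Aldh18a1. The Psat1 value rests on DMSO arrays under the filter threshold in both genotypes, and its call was lost without any 1 of 12 of the 14 arrays. The Aldh18a1 value rests in part on arrays under that threshold, WT DMSO arrays among them.

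One array stood apart from its group. Psph on lsPERK tunicamycin replicate 3 had a log2 intensity of 8.49, and its gap to the nearest array took a share of 0.845 of the group's range. This was the 1 flag among 18 groups of 4 arrays, and chance flags about 1 in 20 groups. Without that array the Psph response in lsPERK liver was 0.66 (adjusted p = 0.00655).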

How the results depend on the processing

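Of 1266 values of single enzymes under another setting, 1223 kept their side of the threshold, 30 lost their call, 13 gained one and none reversed a called direction, while 65 uncalled values changed sign. The count of enzymes called in the lsPERK response was 1 on the values as deposited. With arrays left out in turn it ran from 1 to 4: lower without lsPERK tunicamycin replicate 2 or lsPERK DMSO replicate 2, and 4 without lsPERK DMSO replicate 3. The other counts stayed within 1.5 times their values, at 7 throughout for WT, 6 to 7 between genotypes under tunicamycin and 3 to 4 for the difference with arrays left out. With the replicate block the counts were 2 in the lsPERK response, 7 in the WT response, 0 between genotypes under DMSO, 6 under tunicamycin and 4 for the difference, as without it. The block changed no call of a single enzyme; Psph in lsPERK liver was 0.55 with it (adjusted p = 0.0498). Same-numbered arrays of different groups correlated at -0.37 to 0.42 (median 0.24), and other pairs at -0.49 to 0.54 (median -0.17). The sign went with the Xist class: all pairs sharing a class correlated positively, and all other pairs negatively. The highest value, 0.54, joined WT tunicamycin replicate 2 and WT DMSO replicate 1, both Xist-high. Whether the numbers mark pairs was not tested apart from Xist. Counts over all genes moved over 1.5 times in these cases: the WT response with Xist-high arrays (3043 against 5642), the lsPERK response as deposited (698 against 1897), with Xist-low (696) and Xist-high arrays (992) and without lsPERK DMSO replicate 2 (1119), the tunicamycin genotype comparison as deposited (2661 against 4269) and with Xist-high arrays (2070), and the difference with Xist-low (1178 against 2401) and Xist-high arrays (671). Under DMSO 1 gene was called under 5 settings, 17 with Xist-low and 7 with Xist-high arrays. Scaling moved the share of higher calls: as deposited it was 83.7% in the WT response against 44.2%, 26.5% in the tunicamycin genotype comparison against 52.4% and 6.85% in the difference against 51.3%; with median centring it was 60.7%, 37.3% and 35.6%, and 71.7% in the lsPERK response against 53.7%. The median change of all genes as deposited was 0.30 in the WT response and -0.41 in the difference, against -0.13 and 0.08. The call of the Psat1 difference was also lost with no filter (-3.84, adjusted p = 0.0549), no trend (-3.84, adjusted p = 0.0590) and the Actb covariate (-3.81, adjusted p = 0.0539); a floor at the 25th percentile gave -4.51 (adjusted p = 7.35e-05). The fit of only the groups compared gives no difference of responses. The number of arrays limits the precision. The cause of these shifts was not tested.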

Other observations

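Several further pathway genes were named after their values were seen. Aldh1l2, a mitochondrial folate dehydrogenase, was not called in lsPERK liver (adjusted p = 0.551) and was at least 2.97-fold higher after tunicamycin in WT liver (adjusted p = 0.00115), where its DMSO mean lay under the filter threshold. Its fitted difference of responses was -2.18 (adjusted p = 0.00998). Gldc, the glycine-cleaving decarboxylase, changed by 0.59 in lsPERK liver (adjusted p = 0.281) and fell by 1.65 in WT liver (adjusted p = 0.00119), with a difference of 2.23 (adjusted p = 0.00535). Prodh, which breaks down proline, fell by 0.99 in lsPERK liver (adjusted p = 0.000255) and changed by -0.24 in WT liver (adjusted p = 0.180). Its difference of responses was -0.76 (adjusted p = 0.0149).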
